A study of Homo sapiens with 4 samples.

Results

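The windows described here are stretches of transcript that an m6A-seq table assigned to a 5' untranslated region (5' UTR). Most of those on the plus strand ran on into coding sequence. The table listed them although the antibody pull-down held few reads from them relative to the input. They were chosen from the read counts themselves: a window was kept when the table put it in a 5' UTR and it had at least 4 input reads for each immunoprecipitated (IP) read. The rule kept 428 of 27678 windows, in 355 of 7267 genes, with 356 windows in 293 plus-strand genes and 72 in 62 minus-strand genes. They are called IP-poor below, and windows with at least 4 IP reads for each input read are called IP-rich. Low ratios are therefore what defined these windows and are given as a description only. The deposited statistics were not part of the rule and are also given as a description only.

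The cells were a human breast cancer line. The study's design and growth protocol gave MDA-MB-231Br, a derivative selected for growth in the brain, and the cell line label gave its parent, MDA-MB-231, a mesenchymal, triple-negative line. The extraction protocol spoke of embryos, which conflicts with both. No treatment or genotype was given. There were 2 input and 2 IP libraries of poly(A) RNA, the IP ones made by pull-down with an N6-methyladenosine (m6A) antibody, and nothing in the labels tied them to separate cultures. The table gave 1 IP and 1 input read count per window, so no window had a replicate value and the libraries could not be compared by a test. The 95% intervals given with ratios are exact (Clopper-Pearson) and cover counting error only. Of 12 genes high in MDA-MB-231, 9 had a listed window, among them VIM, CD44 and AXL, against 1 of 10 luminal breast genes, GATA3. A gene without a window is not shown to be absent.

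m6A is the commonest internal base modification of mRNA. A nuclear methyltransferase complex places it at the sequence DRACH, where D stands for any base but C, R for a purine and H for any base but G, of which GGAC is a favoured core, mostly in long internal exons and near stop codons. It is sparse close to exon junctions, where the exon junction complex keeps the methyltransferase away. At the cap, the first transcribed adenosine can carry N6,2'-O-dimethyladenosine, which antibodies against m6A also bind. The 5' UTR is the stretch that the small ribosomal subunit scans for the start codon, and ATG triplets within it can open short upstream reading frames.

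Sites of 24 nt from windows that the results turn on are shown 5' to 3' in the transcribed sense, as DNA letters from GENCODE 29 transcripts on GRCh38. The first set shows the start codon, in capitals, of 3 of the plus-strand IP-poor windows with most input reads, because most plus-strand members ran through it.
PCNP (chr3:101574204-101574227, plus strand, exon 1): gcggcggggaaaATGgcggacggg
MAP3K13 (chr3:185428570-185428593, plus strand, exon 2): actcatggcacgATGgccaacttt
NPM1 (chr5:171387937-171387960, plus strand, exon 1): tgccgccacccgATGgaagattcg

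The second set shows upstream ATG triplets, in capitals, in minus-strand IP-poor windows of the NBPF family. Copies in this family are near-identical, so its reads may not be assigned with certainty to 1 gene. The sites shown are alike but differ at some bases, and the assignment of reads was not tested.
NBPF9 (chr1:149098450-149098473, minus strand, exon 2): ggtgtgggccaaATGaagagctgc
NBPF15 (chr1:144456549-144456572, minus strand, exon 1): ggtgtgggctgaATGaagagctgc
NBPF11 (chr1:148143427-148143450, minus strand, exon 2): gtgtgggccgacATGaagagctgc

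The third set pairs a GGAC, in capitals, from an IP-poor and from an IP-rich window of the same gene, because the same core stood in windows with opposite ratios. The site of the LSM3 IP-poor window lies just within the coding sequence, and the PITPNC1 windows were placed on different transcripts.
PAFAH1B1, IP-poor window (chr17:2638237-2638260, plus strand, exon 2): cccaaaggagGGACataccactat
PAFAH1B1, IP-rich window (chr17:2593798-2593821, plus strand, exon 1): cgccgagcttGGACtcgagccccg
LSM3, IP-poor window (chr3:14178856-14178879, plus strand, exon 1): gaaacatggcGGACgacgtagacc
LSM3, IP-rich window (chr3:14178379-14178402, plus strand, exon 1): ctccgcgtctGGACtcccgccctg
PITPNC1, IP-poor window (chr17:67378140-67378163, plus strand, exon 1): gcggccggcaGGACcatgctgctg
PITPNC1, IP-rich window (chr17:67377391-67377414, plus strand, exon 1): tcgggggaggGGACgcgcgcggaa

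IP-poor windows were the smaller share of the 5' UTR. They made up 8.65% of the 4946 windows listed there (8.21% on the plus strand and 11.8% on the minus), against 34.9% of coding, 35.6% of 3' UTR and 30.3% of all windows. Every listed window had at least 5 IP reads, so an IP-poor window had to have at least 20 input reads. Among windows that met this minimum, 16.5% of 5' UTR windows were IP-poor (15.4% on the plus strand and 26.1% on the minus), against 37.8% of all windows. At the other end, 2004 windows of the 5' UTR were IP-rich, or 40.5%, against 17.2% over the whole table. The table's region was that of the window's left end on the genome in 97.5% of placed windows. A plus-strand window was thus counted here when it began in the 5' UTR, and a minus-strand window when it ended there.

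The members held 142108 input and 16298 IP reads in all, counted anew where windows overlapped. On the plus strand the input count ran from 21 to 7961 with a median of 134, and the IP count from 5 to 1704 with a median of 15.5. On the minus strand the input count ran from 22 to 2412 with a median of 91.5, and the median IP count was 10. The median ratio of IP to input reads was 0.143 on the plus strand and 0.135 on the minus. In 193 windows there were at least 8 input reads per IP read. Depth limited many of them: 35 stood at the minimum of 5 IP reads and 55 had under 50 input reads, and the upper bound of the ratio was at or below 0.25 in 236 of 428. Closest to the threshold among windows with at least 100 input reads were, on the plus strand, DOCK1 (65 IP and 260 input reads) and FNDC3B (50 and 200) inside and PSMD8 (120 and 474) and MFN2 (36 and 142) outside. On the minus strand they were SLC38A1 (46 and 200) inside and HIVEP2 (36 and 135) outside.

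**Figure D1:**
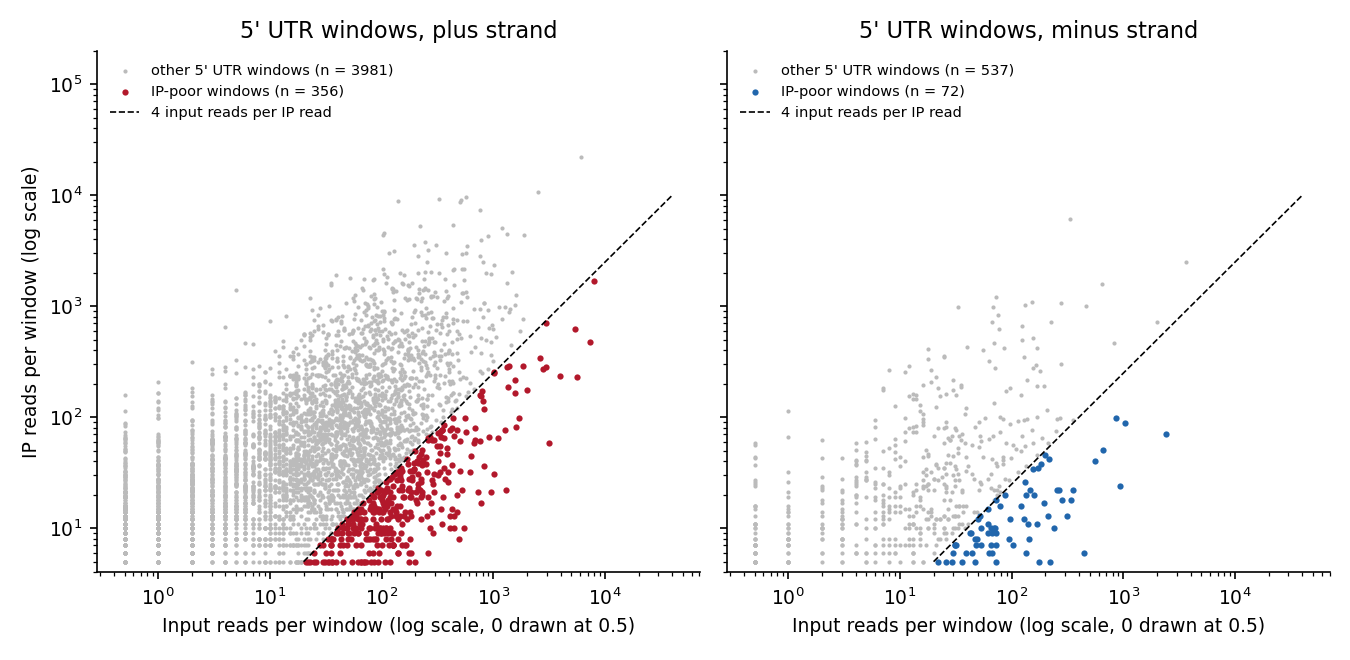
IP reads against input reads, both on log scales, for each 5' UTR window of the plus strand (left) and the minus strand (right); grey points are the other 5' UTR windows, coloured points the 356 and 72 IP-poor ones, and the dashed line marks 4 input reads per IP read. The coloured points fill the lower right by construction, reach 7961 input reads and rest on the floor of 5 IP reads at the bottom.

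The plus-strand windows with most input reads nearly all ran from the first exon across a junction, and lay in genes as different as a tubulin, a kinase and a nucleolar chaperone. PCNP, a nuclear protein rich in PEST sequence, had most, with 1704 IP and 7961 input reads (ratio 0.214, 0.203 to 0.226; chr3:101574185-101580004). The window covered the last 31 nt of its 5' UTR, the start codon and the coding sequence into exon 2. TUBA1C, an alpha-tubulin with close paralogs that may share its reads, had 230 and 5577 reads (0.0412, 0.0360 to 0.0471; chr12:49265087-49269676).

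NPM1, the nucleolar histone chaperone nucleophosmin, had 59 IP reads against 3125 input reads (0.0189, 0.0143 to 0.0244; chr5:171387908-171390121). Its window held the start codon and 2 GGAC sites, and a second IP-poor window of the gene had 22 and 1309 reads (0.0168, 0.0105 to 0.0256). Taking the deepest window of each gene, with at least 100 input reads, the lowest plus-strand ratio belonged to EIF5, the initiation factor that stimulates GTP hydrolysis on the scanning ribosome, with 8 and 493 reads (0.0162, 0.00697 to 0.0322; chr14:103335835-103336117). By the same measure NPM1 came next, before LDHA, the lactate dehydrogenase subunit of aerobic glycolysis, with 17 and 771 (0.0220, 0.0128 to 0.0355). SEC14L1 had 21 and 946 (0.0222, 0.0137 to 0.0341) and BTF3L4 6 and 261 (0.0230, 0.00836 to 0.0507). The intervals of these 5 genes overlapped, so their order is not resolved.

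MSN, the membrane-to-actin linker moesin and a marker of this line, carried 3 IP-poor windows that followed each other along its first exons. From the transcript start onward they held 141 IP and 805 input reads (0.175, 0.145 to 0.210), 342 and 2606 (0.131, 0.117 to 0.147), and 283 and 2950 (0.0959, 0.0846 to 0.108). The ratio was thus lower in each window farther from the start, with neighbouring intervals that overlapped only between the first and second. In the same order 95.6%, 48.2% and 1.05% of the window lay in the 5' UTR, and GC content was 61.1%, 58.2% and 50.5%. The windows crossed 0, 1 and 2 junctions, and which of these features the ratio followed was not tested. These windows share reads where they overlap.

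Some of the deepest windows stood far above the rest of their own gene. MAP3K13, a mitogen-activated kinase kinase kinase, had 478 IP and 7363 input reads (0.0649, 0.0591 to 0.0712; chr3:185363270-185428587), or 3875 input reads per 100 nt, while its other listed windows had a median of 1.86. The receptor phosphatase PTPRG had 235 and 3930 reads (0.0598, 0.0522 to 0.0682), or 2068 input reads per 100 nt against 29.8. The tetraspanin TSPAN9 had 272 and 2794 reads (0.0974, 0.0856 to 0.110), at 1746 against 6.26. RFLNA, a regulator of filamin, had 707 and 2966 reads (0.238, 0.219 to 0.259), at 1561 against 1.82. In all, 34 of 316 members with another, non-overlapping window in the gene exceeded its median input density more than 10-fold, while the median member stood at 1.33-fold. Without these 34 windows the median GC content of the members was 51.6% on the plus strand and 50.8% on the minus, and 87.1% and 70.5% crossed a junction.

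On the minus strand the deepest windows were mostly in gene families with near-identical copies. MTRNR2L8, a nuclear gene that resembles mitochondrial ribosomal RNA, had 71 IP and 2412 input reads (0.0294, 0.0229 to 0.0373; chr11:10508897-10508996). Reads of the mitochondrial copy may be counted among its own, which was not tested. NBPF9, NBPF15 and NBPF11, of the neuroblastoma breakpoint family, had 88 and 1040 (0.0846, 0.0673 to 0.105), 99 and 850 (0.116, 0.0936 to 0.144), and 22 and 351 (0.0627, 0.0388 to 0.0964). The values of this family are uncertain because its genes may share reads, which was not tested.

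Outside such families, ZNF652, a zinc finger repressor, had 24 IP and 927 input reads (0.0259, 0.0165 to 0.0388; chr17:49317887-49362465), the lowest ratio on that strand when the deepest window of each gene is taken. Shallower windows of NBPF9, with 6 and 441 reads (0.0136, 0.00497 to 0.0299), and NBPF11, with 5 and 222 (0.0225, 0.00724 to 0.0534), were lower, with intervals that overlapped that of ZNF652. Its input density was 55.03 times the median of the gene's other windows. TAF7, a subunit of the general transcription factor TFIID, had 5 and 177 reads within exon 1 (0.0282, 0.00906 to 0.0672). ARF4, a small GTPase of Golgi traffic, had 40 and 559 in exon 1, ending 29 nt before the start codon (0.0716, 0.0506 to 0.0987). EIF4G3, an initiation scaffold, had 18 and 343 in exons 2 to 4 (0.0525, 0.0307 to 0.0842).

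Of the 428 members, 414 could be placed on a coding transcript (345 plus, 69 minus), and the shares that follow are over these. The 14 others, among them RPS27 and EIF3K, have reads but no sequence features here. Most placed members crossed an exon junction and began more than 50 nt from the transcript start. On the plus strand 304 of 345 crossed at least 1 exon junction (88.1%), against 56.3% of windows between the thresholds and 19.95% of IP-rich windows of the 5' UTR. On the minus strand 50 of 69 did (72.5%), against 42.7% and 14.6%. Members had at least 20 input reads by the rule. Among windows with that many, 69.7% between the thresholds and 48.5% of IP-rich windows crossed a junction on the plus strand. On the minus strand 61.9% and 14.8% did. Of IP-poor coding windows, 90.5% crossed one on the plus strand, near the members' share, and 88.9% on the other, above it. With introns included, 332 of 428 members spanned more than 1000 bases of genome, and the widest spanned 304205.

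The middle of a plus-strand member lay a median 22.5 nt from the nearest junction, whether the window crossed it or not, against 142 nt for an IP-rich window. For minus-strand members it was 26 nt. GGAC sites followed the windows. In plus-strand members 258 of 314 GGAC sites lay within 100 nt of a junction (82.2%), against 36.7% of 3283 sites in IP-rich windows, and the median distances were 43.5 and 164.5 nt. In minus-strand members 32 of 47 did (68.1%), against 22.3%. A site was counted in each window that held it, and transcripts of 1 exon were left out.

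Members began a median 181 nt from the transcript start on the plus strand and 158 nt on the minus. IP-rich windows began at a median of 4 and 11 nt, and those with at least 20 input reads at 49 and 16 nt. Within 50 nt of the annotated start lay the beginning of 18.8% of plus-strand members against 60.8% of IP-rich windows, and of 24.6% against 62.4% on the minus strand. Distance and junctions overlapped as features, yet junctions differed on either side of 50 nt. On the plus strand, of windows that began within 50 nt, 63.1% of members and 7.85% of IP-rich windows crossed a junction, and beyond it 93.9% and 38.8% did.

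**Figure D2:**
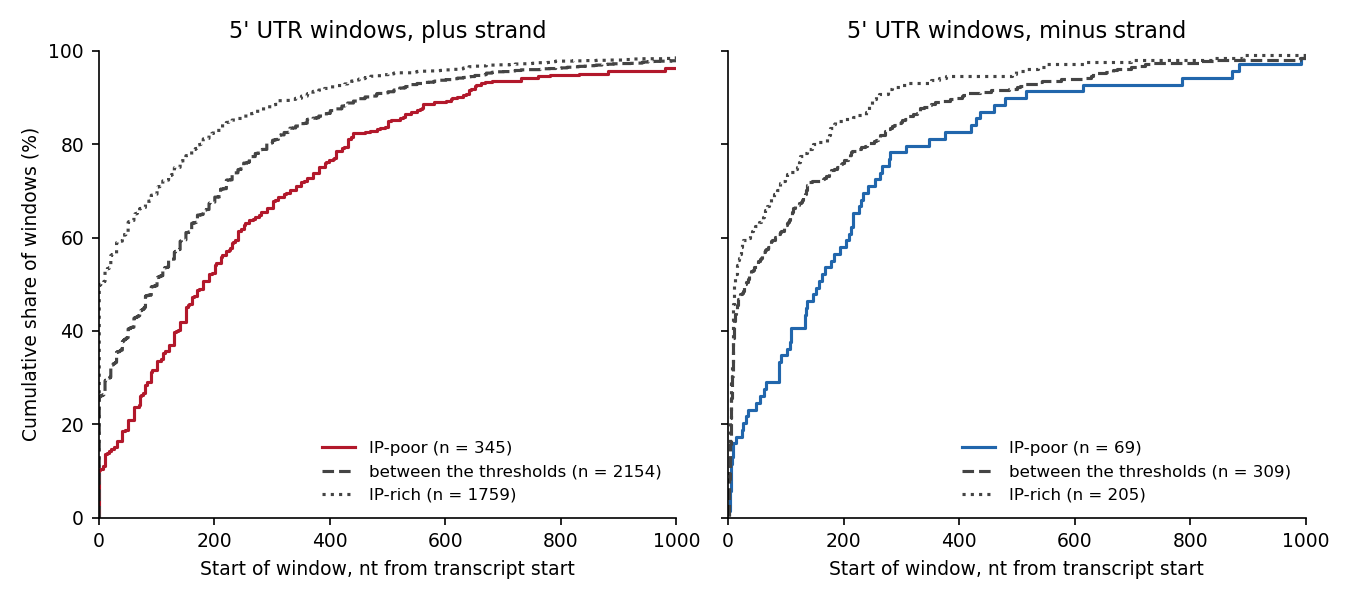
Cumulative share of 5' UTR windows (%) by the distance in spliced nt from the annotated transcript start to the start of the window, drawn to 1000 nt, for IP-poor windows (coloured line), windows between the thresholds (dashed) and IP-rich windows (dotted), with each strand in its own panel. The IP-poor line rises last: its median is 181 nt on the plus strand and 158 nt on the minus, where the IP-rich line reaches its median at 4 and 11 nt.

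Members were also much lower in GC content than the rest of the 5' UTR. The median was 51.5% (quartiles 45.9% and 57.7%) on the plus strand, against 60.5% between the thresholds and 70.5% in IP-rich windows. The minus-strand median was 50.5% (45.8% and 57.5%), against 63.0% and 71.3%. These values were close to those of IP-poor coding windows, at 49.1% and 50.8%. A plus-strand window of this class had a median of 43.6% of its length in the 5' UTR, so coding sequence adds to it. In the 75 plus-strand members that lay wholly in the 5' UTR the median was 54.4%, against 70.9% in IP-rich windows that did.

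Windows that crossed a junction had lower GC content in every class. The 41 plus-strand members within 1 exon had a median of 59.6%, against 71.8% for IP-rich windows within 1 exon, and the 304 that crossed a junction 50.2% against 63.3%. The 19 minus-strand members within 1 exon stood at 56.5% against 71.7%. The difference was smaller, but in the same direction, between windows with at least 20 input reads, at 51.5% against 66.4% on the plus strand and 50.5% against 65.0% on the minus. Which of GC content, junctions and position the read ratio followed was not tested.

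The features were graded along the whole range of ratios and did not begin at the threshold. Plus-strand windows with 8 or more input reads per IP read had a median GC content of 50% and began at 221 nt, and those with 4 to 8 input reads per IP read stood at 52.9% and 152.5 nt. Windows just beyond the threshold, with 2 to 4 input reads per IP read, had 54.8% and began at 151 nt, and those with 8 or more IP reads per input read 71.8% and 1 nt. Across all placed 5' UTR windows of the plus strand, GC content and the log2 ratio had a Spearman correlation of 0.60 (n = 4258 windows, which overlap and share libraries), and on the minus strand 0.54 (n = 583). Among the members alone, whose range of ratios was narrowed by the rule, the correlation was 0.23 (n = 345) and 0.36 (n = 69).

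**Figure D3:**
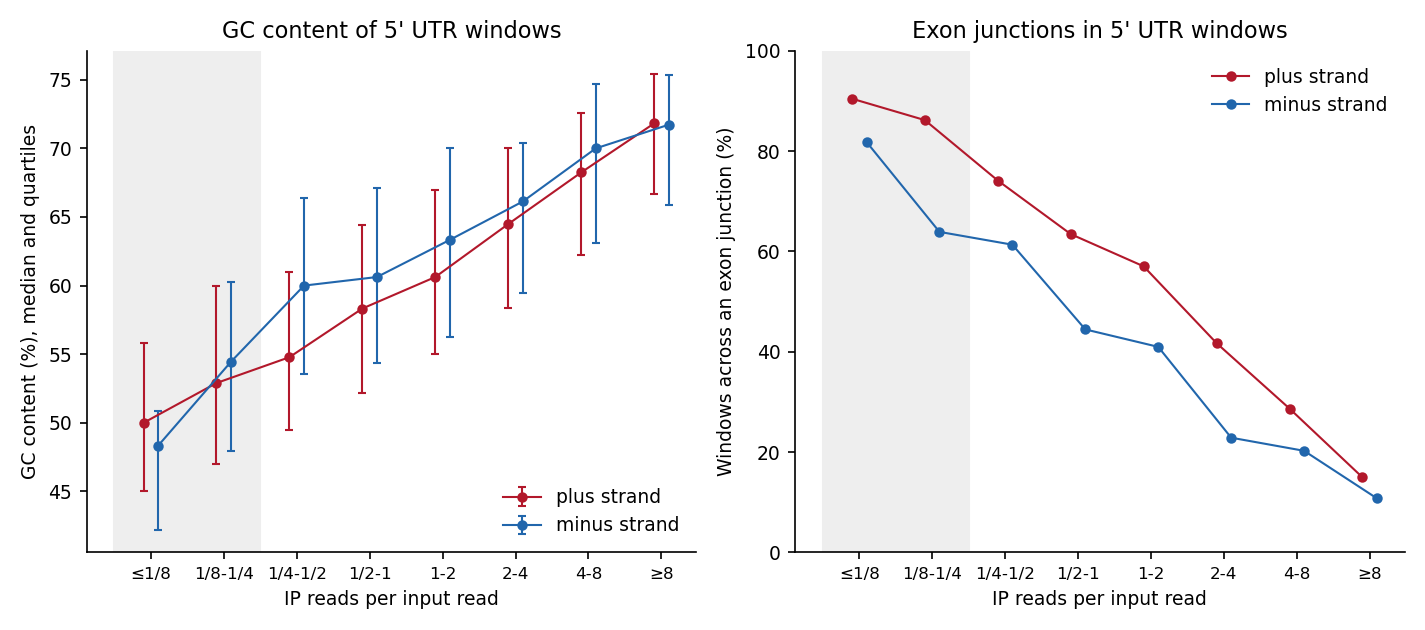
Median GC content with quartiles (left, %) and share of windows that cross an exon junction (right, %) in 8 bins of IP reads per input read, for 5' UTR windows of the plus strand (red) and the minus strand (blue); the grey band marks the IP-poor bins. From the lowest to the highest bin, median GC content went from 50% to 71.8% on the plus strand and the share across a junction from 90.4% to 15.0%.

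What a member held of its gene differed by strand, as the left-end rule implies. On the plus strand 241 of 345 members contained the start codon (69.9%), against 70.4% of windows between the thresholds and 62.6% of IP-rich windows. Of minus-strand members 2 of 69 did, and 63 of 69 lay wholly in the 5' UTR, against 75 of 345 on the plus strand. For 318 plus-strand and 63 minus-strand members the left end lay in the 5' UTR of the transcript used here. In the others, among them windows of EEF1B2, CCT7, PSMD8 and NEDD4L, it lay elsewhere on that transcript, and the table's region may rest on another isoform.

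Upstream ATG triplets were denser in members than in IP-rich windows. Per 100 nt of 5' UTR there were 0.817 on the plus strand and 1.12 on the minus, against 0.404 and 0.431. The share of windows with at least 1 differed by strand. On the plus strand it was lower in members, with 109 of 345 (31.6%) against 41.2% of IP-rich windows. On the minus strand it was higher, with 53 of 69 (76.8%) against 52.7%. Only the 5' UTR part of a window was searched, so these shares depend on its length. On the plus strand that part was a median 43.6% of a member and 78.1% of an IP-rich window, with median window lengths of 170 and 260 nt. In windows across a junction the densities were 0.922 against 0.522 on the plus strand and 1.33 against 0.492 on the other. Within 1 exon, with 41 and 19 members, they were 0.327 against 0.389, the opposite direction, and 0.648 against 0.421. The part of GC content in these densities was not tested.

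The motif of m6A was present in most members, as in most other windows of the 5' UTR. On the plus strand 325 of 345 members held a DRACH (94.2%), against 91.8% of IP-rich windows. On the minus strand 65 of 69 did (94.2%), against 84.4%. DRACH occurred at 1.94 per 100 nt on both strands, more densely than in IP-rich windows, where it occurred at 1.21 on both. Its GGAC core went the other way, with 0.483 per 100 nt on the plus strand and 0.402 on the minus, against 0.643 and 0.638. In plus-strand windows wholly in the 5' UTR the gap was smaller, with 0.554 in members against 0.601 in IP-rich windows. Windows between the thresholds had 0.524 there, below the members. On the minus strand such windows had 0.411, against 0.630 in IP-rich windows and 0.564 between the thresholds. At least 1 GGAC lay in 187 of 345 (54.2%) and 28 of 69 (40.6%) members, against 76.7% and 68.3% of IP-rich windows, which were longer, with median lengths of 260 and 190 nt against 170 and 160 nt. Both motifs were read on the transcribed strand, every DRACH that reads GGAC followed by A, C or T counts in both, and a match says nothing of methylation.

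Most genes with an IP-poor window had no IP-rich one. Of the 355 genes, 102 had one anywhere in the transcript (28.7%), against 1778 of the 3061 other genes with a 5' UTR window (58.1%). Within the 5' UTR it was 68 genes (19.2%) against 1658 (54.2%). By strand, it was 90 of 293 plus-strand genes anywhere (30.7%) against 59.6%, and 66 within the 5' UTR (22.5%) against 56.1%. Minus-strand genes had lower shares: 12 of 62 anywhere (19.4%) against 49.3%, and 2 within the 5' UTR (3.23%) against 43.4%. In 35 of the 355 genes, 14 of them on the minus strand, no other window was listed, so these could not hold an IP-rich window as well. The counts rest on the same ratios as the rule and are a description. Each of the 355 genes had a 5' UTR window that the rule barred from being IP-rich, while no window of the other genes was fixed in this way. In 536 of those other genes the only listed window could itself be IP-rich. The shares are thus not on equal terms, and lower ones in the 355 genes are partly given by the rule.

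In these 68 genes the IP-poor window mostly lay downstream. In each gene the pair with the widest span had the IP-poor window downstream of the IP-rich one (66 genes on the plus strand and 2 on the minus), as in 82 of all 83 pairs, the exception being a pair in BTBD3. Of the pairs, 25 overlapped. Where both windows could be placed, in 66 genes, the IP-poor window was lower in GC content in 64, with medians of 52.2% and 71.9%. It crossed a junction in 63 of 66, and the IP-rich window did in 3. In 53 pairs both windows were placed on the same transcript. There the IP-poor window began at a median of 371 nt, and within 50 nt of the start in 2. The IP-rich window began at a median of 1 nt, and within 50 nt in 40. In 33 it began at nt 1, where no window could begin before it, so the order was given by position.

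PAFAH1B1, the lissencephaly gene that regulates dynein, spanned most. Its first 260 nt held 1190 IP and 23 input reads (51.7, 34.3 to 81.9; chr17:2593746-2594005), and the window at nt 391 to 560, across exons 2 and 3, held 6 and 185 (0.0324, 0.0118 to 0.0719; chr17:2638228-2665448). GC content was 75% in the first and 38.8% in the second, and the GGAC sites shown above lay 389 and 42 nt before the start codon. In EIF5 the window at nt 161 to 460 held 492 and 23 reads (21.4, 14.1 to 34.1), with 6 GGAC sites, and the low one at nt 651 to 830 had 0.

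PDCD4, a translation inhibitor and tumour suppressor, had 229 IP and 7 input reads in its first 220 nt (32.7, 15.6 to 82.3), and 8 and 87 downstream (0.0920, 0.0385 to 0.189), where 3 GGAC sites lay against 0 in the IP-rich window. LSM3, of the ring that binds U6 RNA, had 153 and 11 (13.9, 7.56 to 28.5), then 7 and 165 (0.0424, 0.0168 to 0.0894), with 1 GGAC in each. BUD31, a spliceosome component, had 262 and 33 (7.94, 5.51 to 11.8), then 5 and 176 (0.0284, 0.00911 to 0.0676). In PAFAH1B1, EIF5, PDCD4, LSM3 and BUD31 alike, the downstream window had fewer IP reads and more input reads than the upstream one.

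PITPNC1, a phosphatidylinositol transfer protein, had 51 and 2 reads (25.5, 6.71 to 216), then 7 and 126 (0.0556, 0.0219 to 0.118), on different transcripts. SPANXA2, a testis antigen with near-identical copies, had 26 and 2 (13.0, 3.25 to 113), so few input reads that its ratio is poorly fixed, then 14 and 469 (0.0299, 0.0162 to 0.0506). NBPF19, of the repeated family above, had 739 and 36 (20.5, 14.7 to 29.5), then 82 and 1589 (0.0516, 0.0408 to 0.0645).

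**Figure D4:**
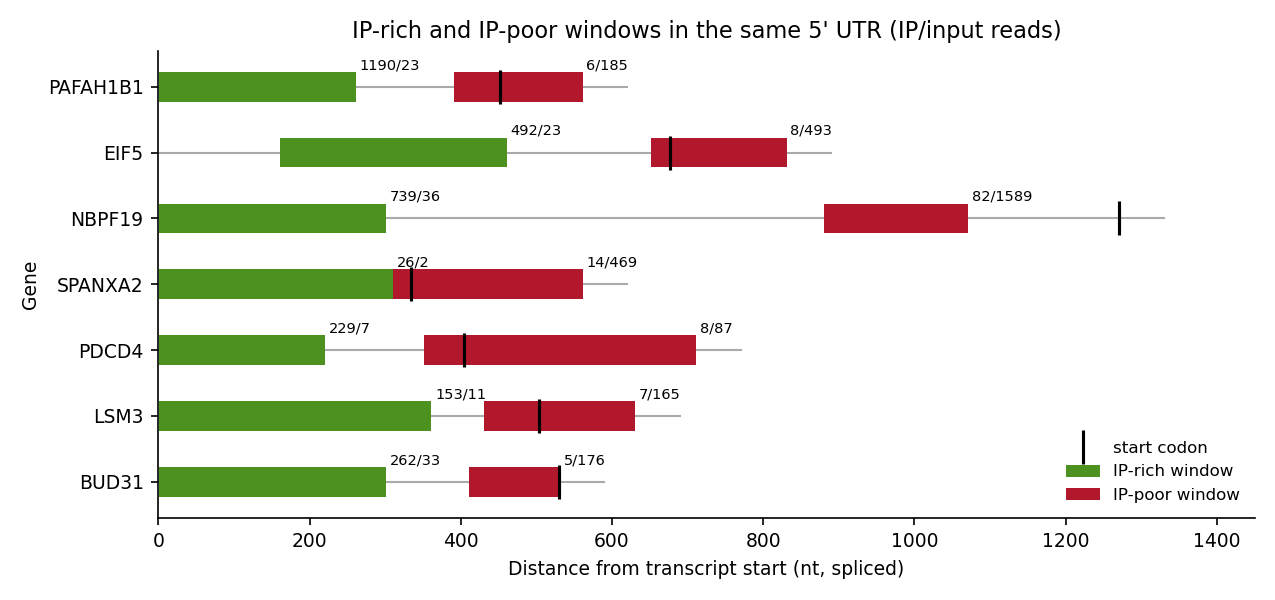
IP-rich (green) and IP-poor (red) windows on the spliced transcript of 7 genes, by distance in nt from the annotated start, with the start codon as a black bar and IP/input reads beside each window. In each gene the IP-poor window lies downstream; PITPNC1 is not drawn because its windows fell on different transcripts.

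By function, the share of genes with an IP-poor window was highest in the lists of ribosomal proteins, translation factors and splicing factors. The background is 355 of 3416 genes with a 5' UTR window, or 10.4%, and the lists are described by counts, with no test. Of 13 cytosolic ribosomal protein genes with such a window, 6 had an IP-poor one (46.2%). An IP-rich one was listed in 0 of the 13, against 50.5% of all genes with a 5' UTR window. RPS21 held 176 IP and 1994 input reads (0.0883, 0.0752 to 0.103), and RPL15 99 and 1709 (0.0579, 0.0468 to 0.0710). RPL27A, RPS27 and RPL21 also had an IP-poor window. Many ribosomal protein genes have processed pseudogenes that can take reads from them, and the same holds for NPM1. Their 5' UTR windows were also much deeper: the median of the highest input count per gene was 1555 reads in this list and 27 over all genes, and the part of depth in these shares was not tested.

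Of 25 translation factor genes, 8 had an IP-poor window (32.0%). Beside EIF5 they included EIF3M, an eIF3 subunit, with 53 IP and 381 input reads (0.139, 0.102 to 0.186), and EEF1B2, an elongation factor subunit, with 288 and 1392 (0.207, 0.182 to 0.235). Among splicing factors and hnRNPs it was 10 of 37 (27%), where SRSF3 had 77 and 1272 (0.0605, 0.0475 to 0.0762), the cold-induced RBM3 65 and 1095 (0.0594, 0.0455 to 0.0763), and the snRNP core protein SNRPD1 22 and 520 (0.0423, 0.0263 to 0.0647). Their lists had median highest input counts of 119 and 97 reads, again above 27. An IP-rich 5' UTR window lay in 6 of the 25 translation factor genes (24%). It lay in 16 of the 37 splicing factor and hnRNP genes (43.2%), nearer the 50.5% of all genes.

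The nuclear transport list had 4 of 18 (22.2%), KPNA2 with 218 IP and 1577 input reads (0.138, 0.119 to 0.159), RAN, CSE1L and NUP205. Nuclear genes of oxidative phosphorylation had 5 of 23 (21.7%), among them COX7C with 289 and 1846 (0.157, 0.138 to 0.177), COX7B with 80 and 686 (0.117, 0.0913 to 0.147), whose input density was 57.9 times that of its other windows, and NDUFS5 with 68 and 443 (0.153, 0.117 to 0.199). Tubulins and motor proteins had 6 of 33 (18.2%).

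Other lists lay nearer the background. DEAD and DEAH box helicases had 2 of 12, chaperones 3 of 19, mitochondrial ribosomal proteins 3 of 19, deubiquitinases 3 of 20, proteasome subunits 2 of 14, actin genes 2 of 14, protein phosphatases 5 of 36, zinc finger genes 13 of 98, glycolysis 1 of 8 and matrix and integrin genes 3 of 25. Ubiquitin conjugation and ligase genes had 9 of 78, cell cycle genes 6 of 54, aminoacyl-tRNA synthetases 1 of 9 and solute carriers 6 of 55. Slightly below the background of 10.4% lay chromatin regulators with 3 of 35 (8.57%) and vesicle traffic with 7 of 86 (8.14%). So did the list of m6A writers, erasers and readers, made by symbol, with 1 of 12 (8.33%). Cholesterol and fatty acid synthesis had 0 of 7, a list too short to place.

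The 1 gene of the m6A list was METTL23, a methyltransferase-like protein that is not a writer of m6A. It had 14 IP and 84 input reads (0.167, 0.0874 to 0.295), with an interval that covered the plus-strand median of 0.143. Members of other lists lay on either side of it, with a higher ratio in SLC25A3, for example (0.247, 0.215 to 0.284), and lower ones in those that follow. CCNB1, the mitotic cyclin, had 59 IP and 669 input reads (0.0882, 0.0664 to 0.115), and CDC42, a small GTPase of cell polarity, 14 and 284 (0.0493, 0.0266 to 0.0841). The ubiquitin ligase ITCH had 9 and 288 (0.0313, 0.0141 to 0.0602) and the collagen receptor subunit ITGA2 19 and 181 (0.105, 0.0618 to 0.169). The chaperonin subunit CCT7 had 21 and 725 (0.0290, 0.0178 to 0.0446). The intervals of CCNB1 and ITGA2 overlapped that of METTL23.

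**Figure D5:**
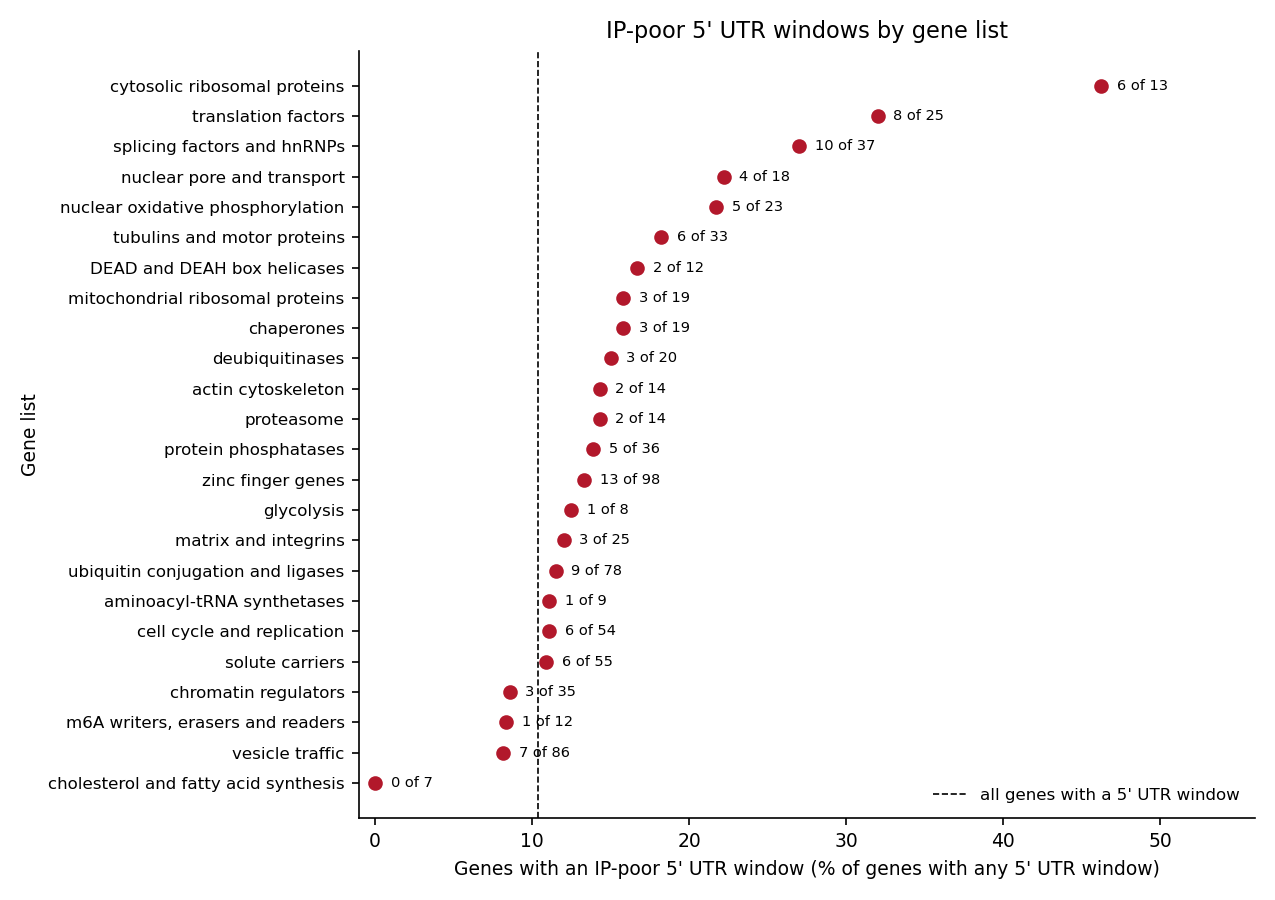
Share of genes with an IP-poor 5' UTR window (%), among genes of each list with any 5' UTR window, with counts beside the points; the dashed line is the 10.4% of all genes. Cytosolic ribosomal proteins (46.2%), translation factors (32.0%) and splicing factors and hnRNPs (27%) lie farthest above the line, and 4 lists lie below it.

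Most genes had 1 IP-poor window (294 of 355), 51 had 2, 9 had 3 and NEDD4L had 5. NEDD4L is a ubiquitin ligase of ion channels. Its windows held 61 IP and 762 input reads (0.0801, 0.0606 to 0.104), 63 and 680 (0.0926, 0.0704 to 0.120), 10 and 544 (0.0184, 0.00877 to 0.0341), 10 and 444 (0.0225, 0.0107 to 0.0418), and 19 and 353 (0.0538, 0.0320 to 0.0853). The intervals of the 2 lowest did not reach those of the 2 highest, so the ratio differed beyond counting error between windows of this gene. SF3B3, a splicing factor subunit, had 26 and 393 (0.0662, 0.0427 to 0.0984), 35 and 365 (0.0959, 0.0658 to 0.136), and 5 and 69 (0.0725, 0.0228 to 0.177), with intervals that overlapped. Neighbouring windows overlap, and the 428 members merged to 365 separate stretches.

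Annotation was ambiguous for some. An exon of another gene on the same strand overlapped 34 members, and one on the opposite strand 32. The table gave 3 members, in MAP3K14, MYC and P4HA1, a second entry as coding.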

How the data were processed

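Libraries were polyadenylated RNA from a breast cancer cell line, 2 input and 2 IP, per the labels. HISAT2, HOMER and the GRCh38/hg38 build are named in the submitters' processing notes, with no version or role. Peak calling, filters, library totals and pooling are not given in the sources used here. The labels mention sonication for IP samples only. Per the file headers, the authors' deposited table gave 1 input and 1 IP read count per window, a score, and a p-value with its false discovery rate (FDR). Counts were taken as pooled and used unscaled, so ratios are relative to other windows of the table and no ratio stands for no enrichment. For the members, the authors' deposited table had a median p-value of 9.10e-08, FDR values up to 0.0992 and a median score of 4.27, infinite in 9. These were not used.

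Of 27855 entries, 177 repeats were dropped. With Python 3.11.15, pandas 2.3.3, numpy 2.4.6 and scipy 1.17.1, windows were matched to GENCODE 29 by symbol, by synonym (179) or by coordinates (55, for symbols turned into dates), and 4 were unmatched. They were placed on spliced coding transcripts where both ends lay in exons and the spliced length was a multiple of 10 nt (97.98% placed). The placement was checked on simulated windows. Sequences came from GENCODE transcripts.

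Genes and windows were named by rule: per strand, taking the window of each gene with most input reads, the 10 with most input reads and the 5 lowest ratios with at least 100 input reads; up to 3 per list; the 8 widest IP-poor to IP-rich spans, by log2 ratio with a pseudocount of 1 and at least 20 reads; and the windows nearest the threshold. Windows of MSN, NEDD4L, SF3B3, NPM1, NBPF9 and NBPF11 beyond the rule, members listed by name for a count, and values of high input density were chosen after they were seen. Members and the 24 lists were chosen with earlier results of these data known. No test was run. Alternatives covered the threshold, a pseudocount, region by midpoint, an input minimum, repeats, transcript and 1 window per gene. The values of 1 gene that the rule names are not reported here.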

Additional observations from a re-analysis of the deposited data

How the results depend on the processing

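Each value below replaces 1 choice. Asking for 8 input reads per IP read left 159 plus-strand and 34 minus-strand windows. Taking the region of the window's midpoint gave 157 and 177 windows, shares of 6.12% and 15.9% of 5' UTR windows, and median GC contents of 53.1% and 55.4%, so the numbers by strand depend on how the table assigns a region. Among windows with at least 50 input reads the shares were 21.4% and 38.1%, and with 1 window per gene the plus-strand share was 9.63%. With IP-rich set at 2 IP reads per input read, 38.9% of genes had both kinds. The following were added after seeing the data. In windows wholly in the 5' UTR the plus-strand GC content was 54.4% and GGAC stood at 0.554 per 100 nt, and within 1 exon GC content was 59.6% and 56.5%. Where placement and the table's region were the same, the share with the start codon was 75.8% (plus) and 0% (minus). The other 28 of 46 values moved less than these limits: 1.5 times for counts, the 95% interval of the value for the rest, exact for shares, rank-based for medians and Poisson for motif counts. The cause of the changes was not tested.

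No paired analysis was possible because the table carries no replicate numbers. Leaving out a replicate was not run for the same reason. Depth limits the single window: the upper bound of the ratio was at or below 0.25 in 236 of 428 members.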
